A study of Mus musculus with 12 samples.

Results

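Csf1, Csf2 and Csf3, the genes of the 3 colony-stimulating factors, were followed across 12 RNA sequencing libraries of cultured mouse paw fibroblasts. They were found by matching the Ensembl identifiers of the expression table to these symbols, and all 3 were present among 55413 genes. The cells came from paws of BALB/c mice that had been digested with collagenase. Material of 2 to 3 paws was pooled for each culture and carried through 5 passages, and the labels call the cells synovial fibroblasts. The paws had been injected with monosodium urate (MSU) crystals, which cause gout.

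The libraries formed 4 groups of 3. In the in vitro treated group, cells of primed paws met 1 µM of the inhibitor I-BET151 in the dish for their last 24 h, and the labels do not say what those animals had received. In the in vivo treated group, the primed paws came from mice that had received I-BET151 into the abdomen every day (20 mg/kg), beginning 1 day ahead of the first crystals. The primed vehicle group came from primed paws of mice injected without the inhibitor, and the non-primed vehicle group from non-primed paws of such mice. Priming means that the left paw had crystals on days 0 and 9. The right paw, called non-primed, had them on day 9 only, so every group had crystals, and side and priming cannot be told apart. RNA was taken on day 18 in every group. I-BET151 blocks the BET bromodomain proteins, which bind acetylated histones and help genes to be transcribed. Values are regularized log2 expression (rlog). They hold no counts of reads, and library depth is therefore unknown. The labels do not say whether cultures of a group came from different animals, so p-values measure the spread between these pooled cultures, which may be technical.

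The colony-stimulating factors are secreted proteins named for the blood cell colonies they support. Csf1 encodes macrophage colony-stimulating factor (M-CSF), which mesenchymal cells make steadily and which keeps macrophages and osteoclast precursors alive. Csf2 encodes granulocyte-macrophage colony-stimulating factor (GM-CSF) and Csf3 encodes granulocyte colony-stimulating factor (G-CSF), both of which fibroblasts are known to make mainly after stimulation by cytokines such as interleukin-1. In joints these factors are known for feeding macrophages, osteoclasts and neutrophils.

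Csf1 lies on chromosome 3 (107741048 to 107760469, minus strand, GRCm38). Csf2 (54247271 to 54249667, minus strand) and Csf3 (98701263 to 98703629, plus strand) both lie on chromosome 11. Cytokine messages that decay fast are known to carry AU-rich elements, repeats of the pentamer ATTTA, in the 3′ UTR. The 30 bases of each 3′ UTR with the most such pentamers are shown because the 3 genes differ in this feature. They were read 5′ to 3′ on the strand of the gene from GENCODE M21 transcripts, with the pentamers in capitals.
Csf1 (chr3:107741109-107741138): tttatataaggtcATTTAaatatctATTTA
Csf2 (chr11:54247329-54247358): tttttaaatATTTATTTATTTATTTATTTA
Csf3 (chr11:98702984-98703013): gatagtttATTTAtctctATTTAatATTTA
The stretch of Csf2 held 5 overlapping pentamers, that of Csf3 held 3 and that of Csf1 held 2. Over the whole 3′ UTR, searched on the transcript strand with overlapping matches counted, Csf2 had 9 pentamers in 317 bases (28.4 per kb). Of 13664 tested genes with an annotated 3′ UTR, 0.0366% were as dense or denser. Csf3 had 6 in 669 bases (8.97 per kb, reached by 1.34% of genes) and Csf1 had 4 in 2111 bases (1.90 per kb, reached by 37.1%). By count alone, whatever the length, 7.89% of genes had at least the 9 of Csf2. The 6 of Csf3 were reached by 16.2% and the 4 of Csf1 by 27.4%. Csf1 has 7 annotated transcripts, of which 1 was read. These counts describe the sequence and say nothing of whether a protein binds there.

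The cultures differed in transcripts that mark cell types, and this touches every value below. The mean over 10 melanocyte markers, among them Tyrp1 and Dct, lay between 13.72 and 15.01 in 5 libraries, which were in vivo libraries 2 and 3 and the 3 non-primed vehicle libraries. The remaining 7 had means of 5.71 to 6.89. For 10 markers of fibroblasts, among them Col1a1 and Thy1, the mean was 7.10 to 11.14 in the 5 libraries rich in pigment cell transcripts and 14.42 to 15.26 in the other 7. Macrophage marker means were 3.58 to 6.21 and 7.47 to 9.50 in the same sets. In vivo library 1 was thus the only library of its group that resembled the primed vehicle and in vitro libraries in these lists. In bulk samples fewer cells of a type and less RNA per cell cannot be told apart.

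The library labelled non-primed vehicle 3 stood apart from the other 2 of its group in genes that BET inhibitors are known to raise. Hexim1, which holds the elongation factor P-TEFb inactive, was at 13.85 to 14.13 in the in vitro treated libraries, 13.90 to 14.23 in the in vivo treated ones, 11.98 to 12.39 in the primed vehicle ones and 12.19, 12.25 and 14.26 in the non-primed vehicle ones. Brd2, itself a BET gene, was at 16.47 to 16.77 in vitro, 16.34 ± 0.57 in vivo (mean and SD, n = 3), 14.61 to 14.67 in primed vehicle and 14.78, 14.40 and 15.98 in non-primed vehicle. In both genes that library lay close to the treated libraries, and it also had the lowest Csf1, Csf2 and Csf3 of its group. For the 3 members, limma comparisons of a whole group with the non-primed group are therefore given without it as well. So are the counts with priming for receptors, BET genes, and macrophage, melanocyte and fibroblast markers. The other results for priming, among them the within-library differences between members, are given with it only.

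Csf1 followed that split. It stood at 17.57, 17.42 and 16.84 in the in vitro treated libraries, at 17.17, 13.16 and 13.30 in the in vivo treated ones, at 16.71, 17.49 and 16.97 in the primed vehicle ones and at 13.43, 13.51 and 12.42 in the non-primed vehicle ones. The 7 libraries with high fibroblast markers were all at 16.71 or higher and the 5 rich in pigment cell transcripts all at 13.51 or lower, whatever their treatment. Csf2 stood at 2.28, 1.47 and 2.09 in the in vitro treated libraries, at 1.15, 1.44 and 0.64 in the in vivo treated ones, at 8.10, 10.51 and 10.93 in the primed vehicle ones and at 2.49, 3.90 and 0.95 in the non-primed vehicle ones. The 3 primed vehicle libraries stood apart from the other 9, none of which passed 3.90, and in vivo library 1 was as low as the rest. Csf3 stood at 6.50, 5.96 and 6.36 in the in vitro treated libraries, at 3.05, 1.37 and 1.11 in the in vivo treated ones, at 8.26, 9.88 and 10.11 in the primed vehicle ones and at 3.04, 3.01 and 1.43 in the non-primed vehicle ones. The in vitro treated cultures had a middle level, with no overlap with any other group.

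**Figure D1:**
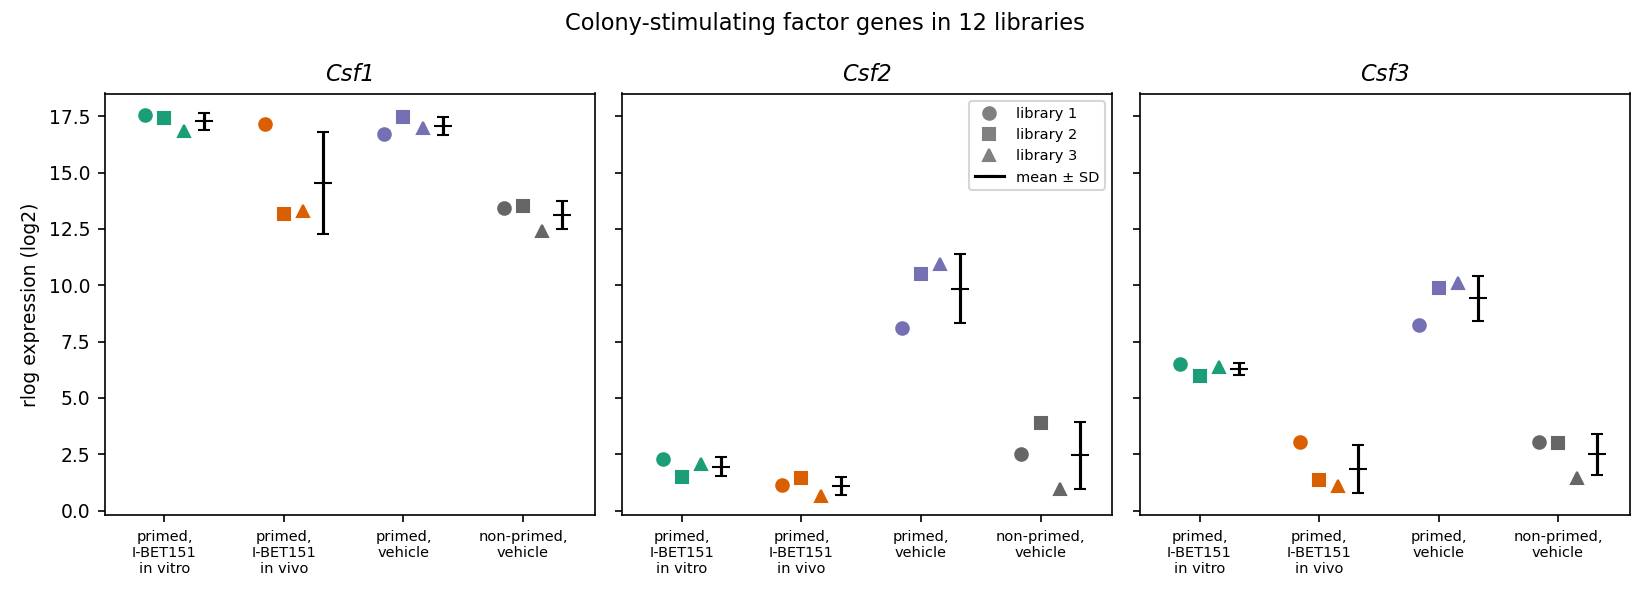
Expression of Csf1, Csf2 and Csf3 (rlog, log2 scale) in each of the 12 libraries, by group, with the mean and SD of 3 libraries beside the points. Csf1 is split within the in vivo group (17.17 against 13.16 and 13.30), Csf2 is high in primed vehicle cultures alone, and in vitro treated cultures hold Csf3 between 5.96 and 6.50.

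Primed vehicle cultures were compared with non-primed vehicle cultures to ask what the earlier crystal injection left behind. All 3 genes were higher in the primed cultures, by amounts that differed. Csf2 averaged 9.85 ± 1.53 in primed and 2.45 ± 1.48 in non-primed cultures (SD, n = 3 each), a rise of 7.40 ± 0.82 log2 units (SE, limma adjusted p = 0.000586). Csf3 averaged 9.41 ± 1.01 in primed and 2.49 ± 0.92 in non-primed cultures and rose by 6.92 ± 0.67 (adjusted p = 0.000464, limma). Csf1 averaged 17.06 ± 0.39 in primed and 13.12 ± 0.60 in non-primed cultures and rose by 3.94 ± 0.88 (adjusted p = 0.00495, limma). The groups did not overlap for any of the 3.

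Of all genes tested, 28.9% were called as higher in this comparison and 33.7% were higher without overlap, so 3 of 3 members is set against a high background. Csf2 also passed the filter on low values (a mean of at least 3) only through its primed vehicle libraries, so that it had to differ there. Among 16459 genes, Csf2 had the 30th and Csf3 the 66th largest rise, and Csf1 ranked 1364. Every non-primed library was rich in pigment cell transcripts and no primed vehicle library was, so priming and this split cannot be told apart here. The rises were called in each alternative that could be fitted (22 for Csf1 and Csf3, 21 for Csf2). Without the library labelled non-primed vehicle 3 they were 6.65 for Csf2, 6.39 for Csf3 and 3.59 for Csf1 (limma adjusted p = 0.00127, 0.00105 and 0.0178).

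The in vivo comparison, against primed vehicle, asked what the inhibitor changed when animals carried it through both crystal injections. In cultures from treated mice Csf2 and Csf3 were low and overlapped their non-primed values, in the case of Csf2 through the library labelled non-primed vehicle 3 alone (0.95). Csf2 averaged 1.08 ± 0.41 in treated and 9.85 ± 1.53 in vehicle cultures, and fell by 8.77 ± 0.82 (SE, n = 3 each, limma adjusted p = 0.000938). Csf3 averaged 1.84 ± 1.05 in treated and 9.41 ± 1.01 in vehicle cultures, and fell by 7.57 ± 0.67 (limma adjusted p = 0.000938). Csf1 averaged 14.54 ± 2.27 in treated and 17.06 ± 0.39 in vehicle cultures, with overlap between the groups, and fell by 2.51 ± 0.88 (limma adjusted p = 0.0435). Of all genes, 21.8% were called as lower and 26.4% were lower without overlap. All 3 members were called, Csf1 with overlap. Its call was lost in 15 of 23 alternatives, and over all 23 the difference ran from -3.86 to 0.11. Csf2 had the 4th and Csf3 the 14th largest fall, ranks in part fixed by the filter. Csf2 passed the filter only through its primed vehicle libraries, so its fall and its call were in part fixed as well.

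The in vivo group mixed both kinds of culture, so the values with library 1 alone are given as well. Against primed vehicle, with in vivo libraries 2 and 3 left out, Csf2 differed by -8.70 ± 1.25 and Csf3 by -6.36 ± 0.84 (SE, limma adjusted p = 0.0378 for each), in a fit that called 0.808% of all genes as lower. Csf1 differed by 0.11 ± 0.47 (adjusted p = 0.908), so the library with a marker profile like that of primed vehicle had no lower Csf1. Without in vivo library 1, the Csf1 difference was -3.83 (adjusted p = 2.76e-05, limma), in a fit that called 33.5% of all genes as lower. In the fit with in vivo library 1 alone, that library is assumed to vary like the other groups. A fit of the 7 libraries low in pigment cell transcripts, chosen after the data were seen, gave the same differences, with adjusted p = 0.00696 for Csf2, 0.00646 for Csf3 and 0.857 for Csf1 (limma). It called 11.8% of all genes as lower.

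Set against non-primed vehicle cultures, in vivo treated cultures differed by -1.37 ± 0.82 for Csf2, -0.65 ± 0.67 for Csf3 and 1.42 ± 0.88 for Csf1 (SE, n = 3 each), and none passed (limma adjusted p = 0.334, 0.564 and 0.346). The 95% intervals ran from -3.19 to 0.45 for Csf2, from -2.13 to 0.83 for Csf3 and from -0.52 to 3.37 for Csf1. In that comparison limma called 0% of genes, with 3366 at an unadjusted p under 0.05. Within the 5 libraries rich in pigment cell transcripts, in vivo libraries 2 and 3 differed from the non-primed ones by 0.11 ± 0.36 for Csf1, -1.41 ± 0.91 for Csf2 and -1.26 ± 0.60 for Csf3, and none passed (limma adjusted p = 0.892, 0.591 and 0.591). This fit was not made without the library labelled non-primed vehicle 3. In vivo libraries 2 and 3 lay below non-primed libraries 1 and 2 for each of the 3 genes. Non-primed library 3 lay below both in vivo libraries for Csf1, between them for Csf2 and above both for Csf3. Taking in vivo library 1 alone, the difference was 4.05 for Csf1 and 0.55 for Csf3. With array weights Csf2 (-2.00, adjusted p = 0.0339) and Csf3 (-1.72, adjusted p = 0.00864) were called as lower and Csf1 stood at -0.12 (limma). That fit called 20.4% of all genes as lower. Without the library labelled non-primed vehicle 3 the differences were -2.12 for Csf2, -1.18 for Csf3 and 1.07 for Csf1, and none passed (limma adjusted p = 0.0973, 0.258 and 0.496), while 2812 genes (17.1%) were called.

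**Figure D2:**
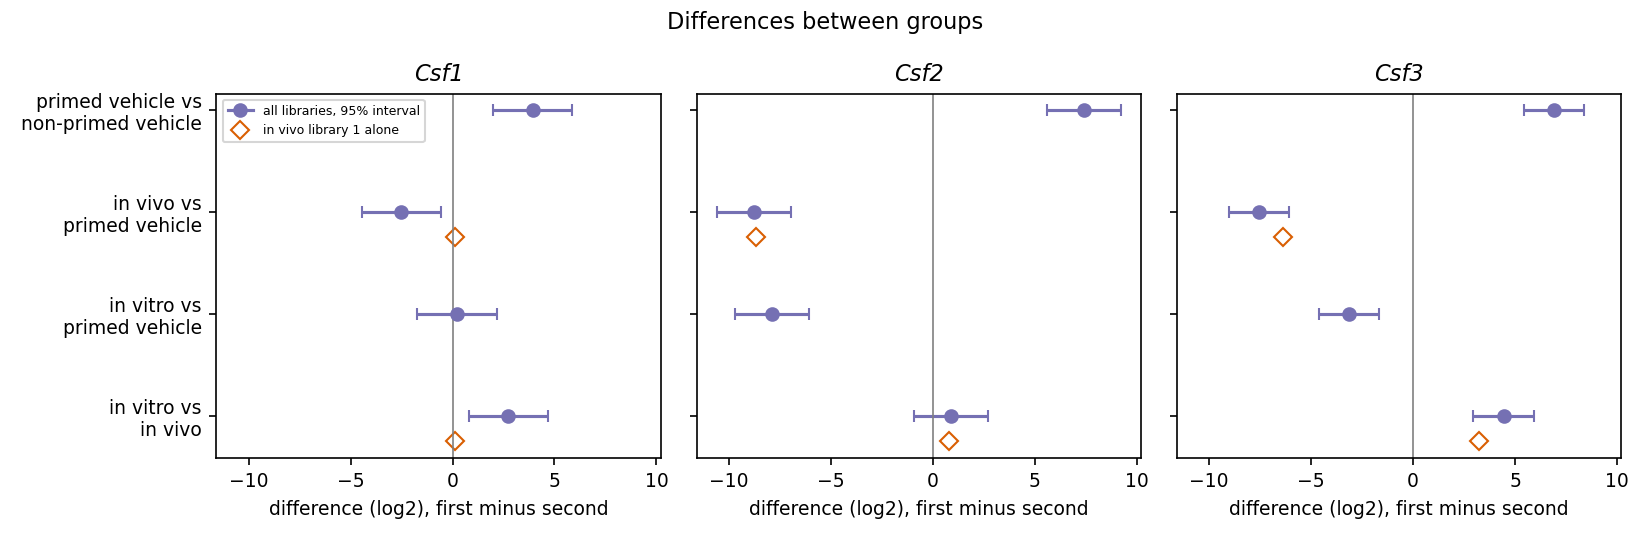
Differences between groups in log2 units, first group minus second, for each gene, with the estimate and 95% interval of the fit of all 12 libraries (filled circles) and the value with in vivo library 1 alone (open diamonds). Csf2 and Csf3 stay far below vehicle with library 1 alone (-8.70 and -6.36), while Csf1 moves to 0.11.

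The in vitro comparison, again set against primed vehicle, held no library rich in pigment cell transcripts. Csf2 fell to a low level, Csf3 fell in part, and Csf1 was not called. Csf2 averaged 1.95 ± 0.42 in treated and 9.85 ± 1.53 in vehicle cultures and fell by 7.90 ± 0.82 (SE, n = 3 each, limma adjusted p = 0.0038), the 2nd largest fall of 16459 genes, a rank in part fixed by the filter. Csf3 averaged 6.28 ± 0.28 in treated and 9.41 ± 1.01 in vehicle cultures and fell by 3.14 ± 0.67 (limma adjusted p = 0.0326), the 186th largest fall. Csf1 averaged 17.28 ± 0.38 in treated and 17.06 ± 0.39 in vehicle cultures and differed by 0.22 ± 0.88 (limma adjusted p = 0.914, 95% interval -1.72 to 2.16).

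Csf2 passed the filter on low values only through its primed vehicle libraries, so its fall from them was in part fixed by the filter. With that limit, 2 of the 3 members were called as lower, where 2.76% of all genes were. That share was 16.9% in the fit of the 6 libraries compared, and leaving out 1 library gave 12 to 2644 genes called in either direction, against 743. Groups did not overlap for Csf2 and Csf3, as for 25.7% of genes in the lower direction. The fit of the 6 libraries compared, which leaves out the wide in vivo group, gave Csf1 a standard error of 0.27 (adjusted p = 0.569) and Csf3 one of 0.48 (adjusted p = 0.00524, limma). The call of Csf3 was close to the threshold in the fit of all libraries. It was lost when primed vehicle library 2 or 3, in vivo library 2 or any 1 of the 3 in vitro libraries was left out, with adjusted p between 0.0512 and 0.138, while the difference stayed between -3.72 and -2.79 (limma). Against non-primed vehicle cultures, in vitro treated ones were higher by 3.78 ± 0.67 for Csf3 (limma adjusted p = 0.00592) and 4.16 ± 0.88 for Csf1 (adjusted p = 0.00627), and Csf2 differed by -0.50 ± 0.82 (adjusted p = 0.636). In that comparison 26.7% of genes were called as higher. Without the library labelled non-primed vehicle 3 the differences were 3.25 for Csf3, 3.81 for Csf1 and -1.25 for Csf2 (limma adjusted p = 0.00647, 0.0145 and 0.213).

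Giving the inhibitor in culture was then set against giving it to the animals, and the largest gap among the 3 was that of Csf3. It averaged 6.28 ± 0.28 in vitro and 1.84 ± 1.05 in vivo, without overlap, a difference of 4.43 ± 0.67 (SE, n = 3 each, limma adjusted p = 0.122). As a background, 11.6% of genes were higher without overlap. Csf1 differed by 2.73 ± 0.88 (adjusted p = 0.122) and Csf2 by 0.87 ± 0.82 (adjusted p = 0.457, n = 3 each, limma). No gene of the 16459 (0%) was called by limma in this comparison, and 5341 had an unadjusted p under 0.05. With in vivo library 1 alone, which had a fibroblast marker mean of 14.65, the Csf3 difference was 3.23 ± 0.84 and that of Csf1 was 0.11 ± 0.47, and neither passed (limma adjusted p = 1 for each). Without in vivo library 1, in which Csf1 stood at 17.17 and Csf3 at 3.05, both passed (differences of 4.05 for Csf1 and 5.04 for Csf3, limma adjusted p = 3.03e-05 and 0.000181). That fit called 27.2% of all genes as higher. The doses and durations of both routes were unlike, 24 h in culture against daily injections.

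The order of the group levels summarises this. For Csf1 the order was in vitro, primed vehicle, in vivo and non-primed, and of these neighbours primed vehicle and in vivo alone passed the test, on the strength of in vivo libraries 2 and 3. For Csf2 it was primed vehicle, non-primed, in vitro and in vivo, with only the first step called and the 3 lower groups within 1.37 log2 units of each other. For Csf3 it was primed vehicle, in vitro, non-primed and in vivo, with the upper steps called and the last one not.

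Whether the genes differed in their response was tested on the difference between a pair of genes within each library. This cancels any scaling of the library but not a difference in cell content. Between in vitro treated and primed vehicle cultures, Csf2 relative to Csf1 differed by -8.12, Csf3 relative to Csf1 by -3.36 and Csf3 relative to Csf2 by 4.76 log2 units. In each of these the 3 treated libraries lay on 1 side of the 3 vehicle libraries, which gives p = 0.1 in the two-sided exact permutation test, the smallest value that 3 against 3 libraries allow (adjusted p = 0.133 over 12 tests). Csf3 minus Csf2 was 4.22, 4.49 and 4.27 in the in vitro treated libraries, against 0.16, -0.64 and -0.83 in the primed vehicle ones. In the in vivo comparison Csf2 relative to Csf1 differed by -6.26 and Csf3 relative to Csf1 by -5.06 (exact permutation p = 0.1 each). Csf3 relative to Csf2 differed by 1.20 with overlap (exact permutation p = 0.2). The in vivo group mixed both kinds of culture here too. Csf2 minus Csf1 was -16.02 in in vivo library 1, against -11.72 and -12.67 in libraries 2 and 3. Csf3 minus Csf1 was -14.12 in library 1, against -11.79 and -12.19. For priming Csf3 relative to Csf2 differed by -0.48 (exact permutation p = 0.4), while both were higher relative to Csf1, by 3.46 for Csf2 and 2.98 for Csf3 (exact permutation p = 0.1 each).

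The rlog levels were set beside the marker lists, library by library. In vivo library 1 and the 3 in vitro libraries had fibroblast marker means of 14.42 to 14.85 and the 3 primed vehicle libraries 14.71 to 15.26. Over these 7 libraries Csf1 ranged from 16.71 to 17.57, Csf2 from 1.15 to 10.93 and Csf3 from 3.05 to 10.11. Other markers differed among the same 7 libraries, with a macrophage mean of 7.47 in in vivo library 1 and 7.77 to 9.45 in vitro, against 8.59 to 9.50 in primed vehicle. Over the 5 libraries with lower fibroblast markers, Csf1 ranged from 12.42 to 13.51.

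**Figure D3:**
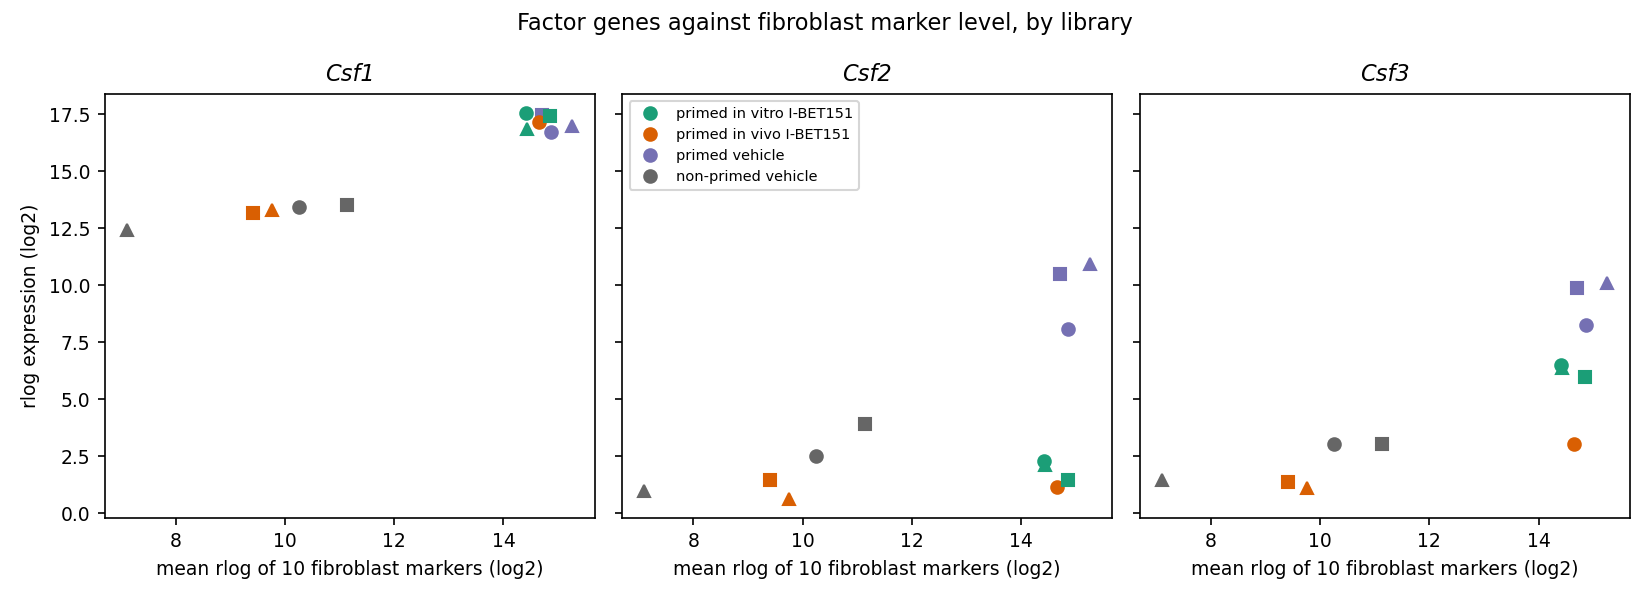
Each library's Csf1, Csf2 and Csf3 level (rlog, log2 scale) against its mean over 10 fibroblast markers (rlog, log2 scale), coloured by group. Csf1 lies at 16.71 or higher in all libraries at the right and at 13.51 or lower in all at the left, while at the right Csf2 and Csf3 separate treated from vehicle libraries.

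Cells other than fibroblasts can make Csf2 and Csf3, and their markers were looked up. Cd3e, a subunit of the T cell receptor complex, lay between -1.52 and -0.84 in all 12 libraries, near the lowest value of the table (-2.24). Trac, the T cell receptor alpha constant gene, stood at 1.21, 2.15 and 2.60 in the in vitro treated libraries, at 1.36, 1.12 and 0.90 in the in vivo treated ones, at 5.31, 4.17 and 4.64 in the primed vehicle ones and at 1.59, 2.19 and 1.18 in the non-primed vehicle ones. The mean over the 7 T cell markers was -0.42 to 0.36 in vitro, -0.35 to -0.16 in vivo, 0.08 to 1.01 in primed vehicle and -0.56 to -0.35 in non-primed vehicle, with none of the 7 tested and none at exactly 0. Mast cell markers (5 genes) had means between -0.77 and 0.31, none was tested, and 1 was listed at 0 throughout. Of 5 neutrophil markers only S100a8 passed the filter. It stood at 6.59 to 9.55 in vitro, 6.14 to 6.68 in vivo, 10.81 to 11.72 in primed vehicle and 3.46 to 7.08 in non-primed vehicle. Ly6g, low and not tested, was at 1.57, 1.51 and 2.54 in primed vehicle libraries and at most 1.04 in the others. Mpo, also low and not tested, was at 1.28, 0.69 and 1.91 against at most 0.60. The remaining neutrophil markers overlapped between primed vehicle and the other libraries. Of 4 endothelial markers tested 1 fell in vivo, near the 21.8% of all genes that did. With priming 2 of the 4 rose, where 28.9% of all genes did, and none was called in vitro. The part of these cells in the Csf2 and Csf3 values was not tested.

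Csf2 shares its locus with Gm12223, an annotated gene on the opposite strand that overlaps it. Gm12223 stood at 1.75, 1.68 and 1.59 in the in vitro treated libraries, at 0.38, 0.86 and 1.06 in the in vivo treated ones, at 3.49, 5.11 and 4.44 in the primed vehicle ones and at 0.04, 0.63 and 0.25 in the non-primed vehicle ones. It was below the filter (mean 1.77) and not tested, and its highest values fell in the same 3 libraries as those of Csf2. The library kit kept strand, but the strand setting of the counting is not given in the sources used here, so reads of the overlapping genes may not be separable.

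Receptors of the factors moved with priming in these cultures, as did macrophage markers. Csf1r, the tyrosine kinase receptor for M-CSF on macrophages, averaged 9.80 ± 0.36 in primed and 4.71 ± 1.45 in non-primed vehicle cultures and rose by 5.10 ± 1.18 (SE, n = 3 each, limma adjusted p = 0.00581). Csf2ra, the GM-CSF binding chain, rose by 1.19 ± 0.20. The shared signalling chain Csf2rb, which also serves interleukin-3 and interleukin-5, rose by 5.54 ± 0.92, and Csf2rb2, its mouse paralogue for interleukin-3, by 5.34 ± 0.82. All 4 receptor genes tested rose, where 28.9% of all genes did (median 5.22, against 0.05 over all genes). Csf2rb and Csf2rb2 are close copies whose values are uncertain, since reads may be shared between them. All 7 tested macrophage markers, Csf1r being 1 of them, rose as well. Without the library labelled non-primed vehicle 3 all 4 receptor genes and 5 of the 7 macrophage markers rose, where 26.8% of all genes did. Csf3r, the G-CSF receptor of neutrophils, did not pass the filter on low values (mean 1.43). It stood at 0.82, 1.21 and 0.69 in vitro, at 0.95, 0.08 and 0.54 in vivo, at 2.81, 4.04 and 4.45 in primed vehicle and at 0.53, 0.93 and 0.11 in non-primed vehicle libraries.

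In mice given the inhibitor, all 4 tested receptor genes fell against primed vehicle, where 21.8% of all genes did. Csf1r averaged 5.17 ± 2.54 in treated and 9.80 ± 0.36 in vehicle cultures, a fall of 4.64 ± 1.18 (SE, n = 3 each, limma adjusted p = 0.0147). Csf2rb fell by 3.67 ± 0.92, Csf2rb2 by 3.80 ± 0.82 and Csf2ra by 1.06 ± 0.20. With in vivo library 1 alone the 4 differences were -2.23 for Csf1r, -2.91 for Csf2rb, -2.86 for Csf2rb2 and -0.81 for Csf2ra, and none passed in that fit (limma adjusted p = 0.274, 0.221, 0.141 and 0.122), which called 0.808% of all genes as lower. In the fit of the 7 libraries low in pigment cell transcripts the last 3 passed (limma adjusted p = 0.0329, 0.034 and 0.0418), where 11.8% of all genes were lower. The macrophage marker mean was 7.47 in in vivo library 1, 4.21 in library 2 and 5.76 in library 3, against 8.59, 8.74 and 9.50 in primed vehicle, and 5 of 7 tested markers fell. In vitro none of the 4 passed, with differences from -1.06 to -0.57 (Csf2rb2 and Csf2ra), and macrophage marker means were 8.14, 9.45 and 7.77. In the fit of only the libraries compared, Csf2ra was called as lower (limma adjusted p = 0.0328).

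Il34, the other ligand of Csf1r, stood at 8.64, 8.64 and 8.82 in the in vitro treated libraries, at 8.65, 5.50 and 4.66 in the in vivo treated ones, at 10.68, 10.18 and 10.26 in the primed vehicle ones and at 6.55, 7.03 and 3.65 in the non-primed vehicle ones. In vitro libraries and in vivo library 1 thus lay together, below every primed vehicle library. Il34 rose by 4.63 ± 1.03 with priming (limma adjusted p = 0.00491) and fell by 4.10 ± 1.03 in vivo (adjusted p = 0.014, n = 3 each). In vitro the difference was -1.67 ± 1.03 (adjusted p = 0.36) in the fit of all libraries, and -1.67 ± 0.16 (adjusted p = 0.00225) in the fit of the 6 compared, where Il34 was called. Of the other cytokines that use the shared chain, Il3 stayed between -2.03 and -1.83 in all libraries and Il5 differed by -0.46 with priming, 0.59 in vivo and 0.68 in vitro, with no call.

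**Figure D4:**
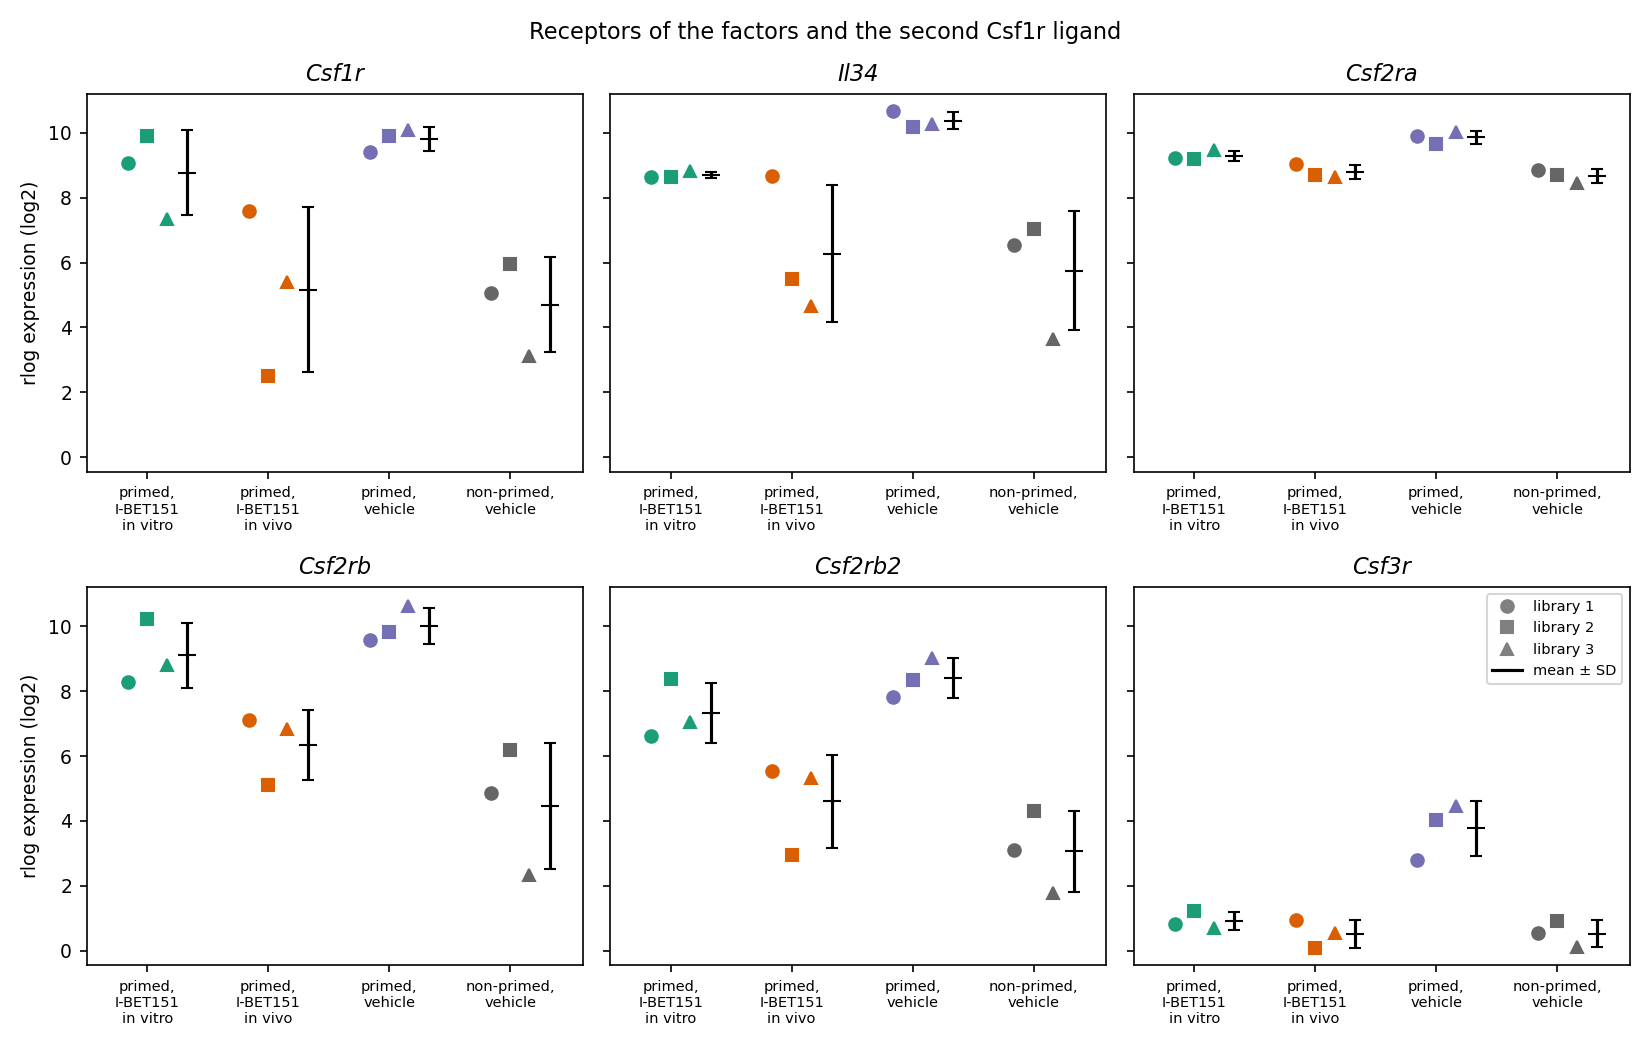
Expression (rlog, log2 scale) of Csf1r, its other ligand Il34, the GM-CSF receptor chains Csf2ra, Csf2rb and Csf2rb2, and the G-CSF receptor Csf3r in each library, by group, with mean and SD of 3. Il34 lies at 8.64 to 8.82 in vitro, below the 10.18 to 10.68 of primed vehicle, and Csf3r is at 2.81 or higher in primed vehicle libraries alone.

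Genes known to act before the factors were counted by list. Of 13 tested inducers of the factors and their receptors, 8 rose with priming and none fell (median 1.94), 9 fell and 1 rose in vivo (median -1.44), and 4 fell in vitro (median -0.82). All-gene medians were 0.05, -0.05 and -0.02. Of all genes 28.9% rose and 22.9% fell with priming, 17.9% rose and 21.8% fell in vivo, and 1.76% rose and 2.76% fell in vitro. In vivo library 1 alone gave 0.377% risen and 0.808% fallen, and in the fit of the 6 in vitro and primed vehicle libraries 13.4% rose and 16.9% fell. Counts from all of these fits, here and for the lists that follow, are to be read against these shares. The 4 in vitro falls were Il1b (-7.97 ± 0.72), Il1a (-7.39 ± 1.24), the receptor Tlr2 (-2.34 ± 0.46) and Il1rap, the accessory chain of the interleukin-1 receptor (-1.08 ± 0.14). Il1b, like Csf2, passed the filter on low values only through its primed vehicle libraries, so its differences from them were in part fixed. Il1r1, the signalling receptor of interleukin-1, rose by 5.70 ± 1.26 with priming and did not pass in vitro. With in vivo library 1 alone, 3 of the 13 fell, and in the fit of the 6 in vitro and primed vehicle libraries 7 fell and 2 rose.

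Of 22 NF-kB, AP-1, NFAT and Ets factors, 13 rose and 2 fell with priming, 11 fell in vivo and none was called in vitro, with medians of 0.95, -0.99 and -0.14. Over all genes 28.9% rose and 22.9% fell with priming, and 17.9% rose and 21.8% fell in vivo. Fosl1, an AP-1 subunit, rose by 6.63 ± 1.19 with priming and fell by 5.09 ± 1.19 in vivo. In the fit of the 6 libraries 6 of these factors fell and 2 rose, where 16.9% and 13.4% of all genes did, and with in vivo library 1 alone 2 fell. Of 11 AU-rich element binding and decay factors, 2 rose and 4 fell with priming, 3 rose and 1 fell in vivo and none was called in vitro (medians -0.06, 0.12 and 0.02). Zc3h12a, the ribonuclease Regnase-1 that cuts cytokine messages, rose by 3.69 ± 0.52 with priming and fell by 3.87 ± 0.52 in vivo, and its in vitro difference was -1.01 ± 0.52 (limma adjusted p = 0.275). With in vivo library 1 alone none of the 11 was called, and in the fit of the 6 libraries 2 fell, a share near the 16.9% of all genes.

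Among 20 signalling genes below the receptors, 9 rose and 4 fell with priming, 2 rose and 7 fell in vivo and none was called in vitro (medians 0.33, -0.22 and -0.09). For this list and the next ones, the shares over all genes were 28.9% risen and 22.9% fallen with priming. They were 17.9% risen and 21.8% fallen in vivo, and 1.76% risen in vitro. Cish, a feedback inhibitor that STAT5 induces, rose by 1.46 ± 0.37 with priming, fell by 1.78 ± 0.37 in vivo and differed by -0.92 ± 0.37 in vitro (limma adjusted p = 0.162). All 8 tested myeloid transcription factors rose with priming, among them Spi1 (3.85 ± 0.85), which drives macrophage development, 7 fell in vivo and none was called in vitro (medians 3.32, -2.33 and -0.20). Of 6 genes for shedding of membrane ligands, a step that frees M-CSF, 3 rose with priming and 2 rose and 2 fell in vivo, and none was called in vitro (medians 0.87, -0.64 and 0.25). None of the signalling genes and myeloid factors and 1 shedding gene were called with in vivo library 1 alone. In the fit of the 6 libraries, 5 of 20 signalling genes rose and 3 fell, 1 of 8 myeloid factors fell, and 2 of 6 shedding genes rose and 1 fell, the falls being at or near the share of all genes (16.9%). Of 9 BET genes and reporters of the inhibitor, 1 rose and 1 fell with priming, 3 rose and 1 fell in vivo and 1 rose in vitro, which was Brd2 (2.01 ± 0.38, limma adjusted p = 0.0249). The medians were -0.20, 0.42 and 0.22. With in vivo library 1 alone none of the 9 was called, and in the fit of the 6 libraries 3 rose. Without the library labelled non-primed vehicle 3, 2 rose and 1 fell with priming, 5 rose and 1 fell in vivo and 3 rose in vitro. In that fit 26.8% of all genes rose and 22.1% fell with priming, 20.6% rose and 25.5% fell in vivo, and 6.43% rose in vitro.

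Melanocyte markers fell with priming in 10 of 10 cases, where 22.9% of all genes did. Of 10 fibroblast markers 9 rose, where 28.9% of all genes did. Without the library labelled non-primed vehicle 3 these counts were 9 and 6, where 22.1% of all genes fell and 26.8% rose. In vivo 3 melanocyte markers rose and 4 fibroblast markers fell, where 17.9% and 21.8% of all genes did. Without in vivo library 1 these counts were 9 of 10 and 10 of 10, where 27% of all genes rose and 33.5% fell. With in vivo library 1 alone the median difference was -1.49 for melanocyte markers and 0.31 for fibroblast markers, against -0.01 over all genes. In vitro none of either list was called, and 1 of each fell in the fit of the 6 libraries.

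The genes whose profile over the 12 libraries was most like each factor were ranked by Pearson's r, as a description. For Csf1 these were Efemp2 (0.997), a matrix protein, Slc24a3 (0.996), Sh3rf3 (0.995), Il1r1 (0.995) and Plod3 (0.994), a collagen-modifying enzyme. For Csf2 they were Tmem167 (0.978), the G protein-coupled receptor gene Gpr84 (0.978), Oit3 (0.976), Il1b (0.974) and Odaph (0.970). For Csf3 they were the neutrophil-attracting chemokine Cxcl1 (0.987), the kinase gene Ikbke (0.985), the chemokine Cxcl2 (0.984), Atg16l1 (0.981) and Tmem258 (0.981). The values share their libraries and the split in cell type markers, which the Csf1 profile follows. Cxcl1 averaged 14.43 in vitro, 10.90 in vivo, 16.71 in primed vehicle and 10.75 in non-primed vehicle cultures, a middle level in vitro like that of Csf3. Il1b averaged 2.55, 1.65, 10.52 and 1.59 in the same order, with no such middle level, like Csf2. It also passed the filter only through its primed vehicle libraries, as Csf2 did. Between the factors themselves r was 0.84 for Csf2 and Csf3, 0.81 for Csf1 and Csf3 and 0.44 for Csf1 and Csf2.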

How the data were processed

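The authors deposited log2 values, their regularized log (rlog), in 1 table of 12 libraries and 55413 Ensembl genes, per the name and values of the table. DESeq2 1.24.0, STAR 2.6.1c, cutadapt 1.18 and Subread 1.6.1 with its featureCounts are named, per the submitters' processing notes, as is build GRCm38. How they were set, the annotation and the strand setting were not given in the sources used here. A regularized log pulls low values together, so differences of Csf2 and Csf3 may be understated. Depth is unknown, so no counting interval was given.

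Groups came from the sample titles. Genes with a mean rlog of at least 3 were kept (16459), and all 3 members passed. Csf2 (mean 3.83) passed only through its primed vehicle libraries. Csf3 (mean 5.01) passed through its primed vehicle and in vitro treated libraries, the only groups in which its mean was above 3. limma 3.58.1 in R 4.3.3 fitted 1 mean per group to all libraries, with a variance trend. P-values were two-sided and Benjamini-Hochberg adjusted over all genes, and an adjusted p under 0.05 was called. The fit was tested on simulated data. Named genes were the members, receptors and their other ligands, up to 3 called genes per list and comparison, and the 5 most alike per member. Genes named outside this rule (Trac, Cd3e, Ly6g, Mpo, Il1rap and Gm12223) were chosen after their values were seen. The members, the 16 lists and the comparisons were chosen with earlier results of these data known. AU-rich pentamers were counted in 1 GENCODE M21 transcript per gene (the APPRIS principal one, then the longest).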

Additional observations from a re-analysis of the deposited data

How the results depend on the processing

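The members were refitted with no filter, a minimum mean of 5 (which removes Csf2), no variance trend, robust moderation, median-centred or quantile-normalized libraries, weights per library, the compared libraries alone, a replicate block, each library left out in turn, and without in vivo libraries 2 and 3. Chosen after seeing the data were fits of the 7 libraries low in pigment cell transcripts and of the 5 rich in them, and list counts without the library labelled non-primed vehicle 3. Without that library the in vitro counts were 6 fallen and 1 risen for inducers, 3 fallen and 1 risen for NF-kB, AP-1, NFAT and Ets factors, 1 fallen and 2 risen for shedding genes, and 1 fallen each for signalling genes, myeloid factors, endothelial markers and neutrophil markers, where 7.96% of all genes fell and 6.43% rose. The calls of Csf2 against primed vehicle, in vivo and in vitro, held in each of the 22 alternatives per comparison. Csf3 in vivo held in 23 of 23, and Csf3 in vitro in 16 of 23. The rises with priming held in all.

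Csf1 in vivo against primed vehicle was not called with no filter (-2.51, adjusted p = 0.0683), with no variance trend (-2.51, adjusted p = 0.0513) or with only the libraries compared (-2.51, adjusted p = 0.134). Leaving out 1 library gave -3.83 to -1.82, called in 2 of 12 cases. It was 0.11 without in vivo libraries 2 and 3 and in the 7 libraries. Csf3 in vitro against primed vehicle ran from -3.72 to -2.79 with 1 library left out, called in 6 of 12 cases. In vitro against in vivo, leaving out 1 library gave 2.04 to 4.05 for Csf1 and 4.07 to 5.04 for Csf3, each called in 1 case, and array weights called both (4.07 and 5.00). Of all genes, 27.2% were called as higher in that case, without in vivo library 1, and 39.6% with array weights. In vivo against non-primed vehicle, array weights gave -0.12 for Csf1, and -2.00 for Csf2 and -1.72 for Csf3, both called, where 20.4% of all genes were called as lower. Without in vivo libraries 2 and 3 the difference from non-primed vehicle was 4.05 for Csf1 and 0.55 for Csf3. Csf2 in vitro against non-primed vehicle ran from -1.25 to 0.23 with 1 library left out. Csf2 relative to Csf1, in vitro against in vivo, was 0.69 without in vivo libraries 2 and 3, in place of -1.86. Where fewer libraries or genes entered a fit, that is its construction, and the cause of the other changes was not tested.

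Same-numbered libraries did not deviate together (correlations from -0.44 to 0.37 over 18 pairs, 4 above 0.1, and 3 of 18 best with their own number), and the fit of all libraries used no pairing. The deviations include the split in cell type markers within the in vivo group, so this check cannot exclude that the numbers pair the samples. With the replicate block, Csf3 in vitro stood at -3.14 with adjusted p = 0.0753, genes called in vitro numbered 173 in place of 743, and no other call of a member changed.

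Genes called in vitro against primed vehicle also numbered 1180 with no filter, 470 with a minimum mean of 5, 1155 with quantile normalization, 6326 with array weights, 4983 with only the libraries compared, 1530 without in vivo libraries 2 and 3, 4989 in the 7 libraries and 12 to 2644 with 1 library left out. In vivo against primed vehicle 6531 genes were called, against 12582 with array weights, 3950 with only the libraries compared, 195 without in vivo libraries 2 and 3, 3365 in the 7 libraries and 2435 to 9962 with 1 library left out. In vitro against in vivo 0 genes became 12243 with array weights, 8085 without in vivo library 1 and 1 with no filter. In vivo against non-primed vehicle 0 became 6563 with array weights, 5816 without in vivo libraries 2 and 3, 2812 without non-primed library 3 and 2 with quantile normalization.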
